A study of Mus musculus with 13 samples.

Results

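The secreted ADAMTS proteases described here are the products of 10 mouse genes: Adamts1, Adamts2, Adamts4, Adamts5, Adamts7, Adamts8, Adamts12, Adamts14, Adamts15 and Adamts16. They were chosen by gene symbol from the 20270 genes of the deposited lung RNA-sequencing tables. These genes, and the lists and markers below, were chosen with earlier results of these data known. Their counts beside all genes are therefore descriptions. Of the 10 genes, 9 had enough counts to be tested, among 15315 genes in all, and Adamts16 did not pass that filter and is described by its counts. The study instilled bleomycin, a drug that injures the lung and leads to fibrosis, through the oropharynx at 1 U per kg in WT mice and in mice lacking the cannabinoid receptor CB1R, and measured RNA of the lower right lobe 14 days later. The 4 control and 5 WT bleomycin libraries came from male C57BL/6J mice of 13 weeks by the study's methods, and per those methods control mice received vehicle. The 4 CB1R KO bleomycin mice were Cnr1-/- on a C57BL/6J background, and their age is not given in the sources used here. No lungs of CB1R KO mice free of bleomycin were analysed here, so the effect of the genotype alone cannot be told apart from its effect after bleomycin. WT bleomycin replicates 4 and 4-B2 share a number in the labels, and whether they came from 1 mouse is not given in the sources used here. They were counted as 2 replicates because the labels list them as separate samples. Their counts differed by more than sampling noise (chi-square per gene 15.6, the highest of the WT bleomycin pairs, whose lowest was 8.00), which does not show that they came from different mice. The p-values rest on the spread between these libraries.

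ADAMTS proteins (a disintegrin and metalloproteinase with thrombospondin motifs) are zinc proteases that are made as inactive precursors, trimmed by furin-like convertases and released into the extracellular matrix. A group of them, to which ADAMTS1, ADAMTS4, ADAMTS5, ADAMTS8 and ADAMTS15 belong, cuts hyaluronan-binding proteoglycans such as versican and aggrecan, whereas ADAMTS2 and ADAMTS14 remove the amino-terminal propeptide of fibrillar procollagens so that collagen fibrils can form. ADAMTS7 and ADAMTS12 cut cartilage oligomeric matrix protein (COMP), and TIMP3 is the main tissue inhibitor of several members.

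Bleomycin raised 5 of the 9 tested genes in WT lungs, where 25% of all genes tested rose and 48.9% changed in either direction, and the rises were far from equal. Adamts4 was 30.5-fold higher than in control lungs, Adamts12 was 12.1-fold higher and Adamts2 was 3.66-fold higher, whereas Adamts7 was 2.16-fold and Adamts1 1.83-fold higher. Adamts8 was 1.29-fold lower, and Adamts5, Adamts14 and Adamts15 did not pass the test. In the libraries labelled CB1R KO, Adamts4 was 2.27-fold lower than in WT bleomycin lungs, and it was the single member that passed the test in that comparison, which 0.979% of all genes passed. That call was lost in 8 of 23 alternative settings.

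Sequence immediately upstream of the start site is shown for the members that the RefSeq promoter table of build GRCm38.p6 holds, because Adamts2 and Adamts12 rose together after bleomycin while Adamts14, the relative of Adamts2, did not. The table matched 4 of the 10 genes and had no entry for Adamts4, Adamts5, Adamts7, Adamts8, Adamts15 and Adamts16. The windows are the 250 bases before each start, at chr16:85803114-85803363 (minus strand) for Adamts1, chr11:50601835-50602084 (plus strand) for Adamts2, chr15:11064523-11064772 (plus strand) for Adamts12 and chr10:61273420-61273669 (minus strand) for Adamts14. They are written 5′ to 3′ on the strand of the gene, and capitals mark the matches to the 7 motifs searched.
Adamts1: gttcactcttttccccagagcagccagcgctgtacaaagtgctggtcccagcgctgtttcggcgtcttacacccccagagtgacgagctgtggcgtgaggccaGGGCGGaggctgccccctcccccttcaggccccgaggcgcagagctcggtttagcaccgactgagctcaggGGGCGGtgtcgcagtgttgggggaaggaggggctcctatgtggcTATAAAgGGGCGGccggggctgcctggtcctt
Adamts2: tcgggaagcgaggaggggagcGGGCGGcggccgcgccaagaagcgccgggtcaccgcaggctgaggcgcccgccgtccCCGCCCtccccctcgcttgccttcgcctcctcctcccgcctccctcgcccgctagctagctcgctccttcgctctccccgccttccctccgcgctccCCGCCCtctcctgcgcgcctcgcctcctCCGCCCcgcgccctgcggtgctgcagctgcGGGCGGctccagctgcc
Adamts12: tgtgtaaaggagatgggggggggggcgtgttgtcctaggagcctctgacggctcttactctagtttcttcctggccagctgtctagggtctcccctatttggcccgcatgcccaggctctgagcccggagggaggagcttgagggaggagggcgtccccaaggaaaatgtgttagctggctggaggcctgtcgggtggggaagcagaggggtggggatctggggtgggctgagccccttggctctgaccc
Adamts14: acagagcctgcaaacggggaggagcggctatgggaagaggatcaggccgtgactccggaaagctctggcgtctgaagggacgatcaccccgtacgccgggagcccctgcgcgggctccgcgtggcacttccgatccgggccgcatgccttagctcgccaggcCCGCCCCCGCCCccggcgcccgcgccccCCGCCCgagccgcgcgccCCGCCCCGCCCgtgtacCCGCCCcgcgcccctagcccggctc

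Capital letters in these windows come from GC boxes (GGGCGG, or CCGCCC on the other strand) and from 1 TATA box (TATAAA). Adamts14 held 6 GC boxes, Adamts2 held 5 and Adamts1 held 3, while Adamts12 held none, against a share of 32.7% of 32851 promoters of the same length with at least 1. The TATA box lay 32 to 27 bases before the start of Adamts1, and 12.4% of all promoters held one at any position. The motifs were searched on both strands, and overlapping matches such as the joined GC boxes of Adamts14 were counted separately. None of the 4 windows held the letters of the AP-1 element (TGANTCA, found in 6.75% of promoters), the cAMP response element (TGACGTCA, 1.55%), the TEAD element (GGAATG, 12.6%), the hypoxia response core (ACGTG, 16.6%) or the CCAAT box (33.8%). GC content was 78.0% for Adamts2, 76.4% for Adamts14, 65.6% for Adamts1 and 63.2% for Adamts12, compared with a median of 52.4% over all promoters. These matches describe the letters of the windows only.

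Of the 13 libraries, 12 held 14615904 to 16662580 estimated counts and CB1R KO replicate 11 held 53463884, which is 3.33 times the median of the others. Levels are therefore given as counts per 1000000 counts (CPM) after TMM scaling, and as transcripts per 1000000 transcripts (TPM) where genes are compared with each other, since TPM accounts for transcript length. Surfactant and other type II cell markers summed to between 18588 and 36481 TPM in every library. The targeted gene did not check the labels. Cnr1 was at 1.62 to 4.10 CPM in control lungs, 3.46 to 6.97 CPM in WT bleomycin lungs and 2.47 to 5.63 CPM in the libraries labelled CB1R KO, and the last 2 groups did not pass the test of their difference (log2 fold change -0.53 ± 0.28 SE, adjusted p = 0.367 by edgeR). The part of Cnr1 that was deleted is not given in the sources used here, so reads from outside the deleted part and a wrong label cannot be told apart, and every direction for CB1R KO below rests on the labels. In whole lung, fewer cells of a type and less RNA per cell cannot be told apart. Below, values follow the order control replicates 3, 21, 24 and 26, WT bleomycin replicates 4, 2, 5, 4-B2 and 7, and CB1R KO bleomycin replicates 8, 9, 10 and 11.

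**Figure D1:**
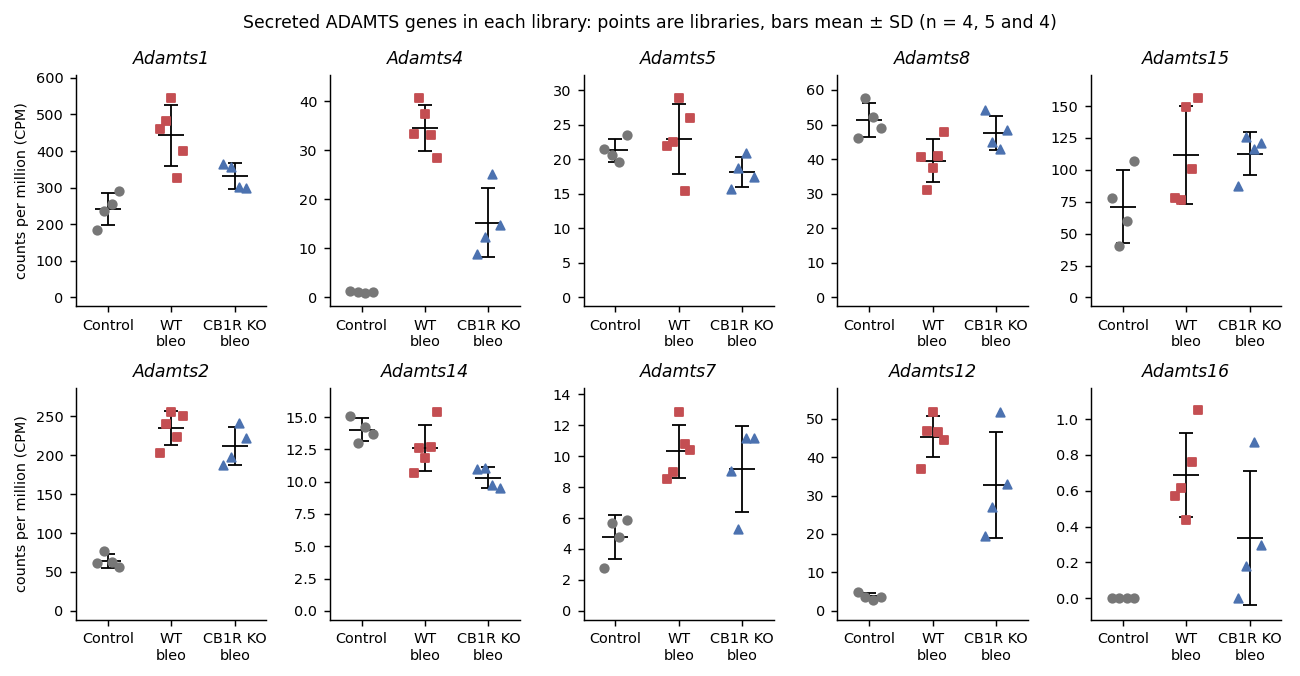
Level of each of the 10 secreted ADAMTS genes in CPM (y axis, starting just below 0) in control, WT bleomycin and CB1R KO bleomycin lungs. Points are libraries (n = 4, 5 and 4), horizontal lines are means and bars are SD. Adamts4 and Adamts12 rise from 1.13 and 3.74 CPM to 34.6 and 45.3 CPM in WT bleomycin lungs, and for Adamts4 no point of a group reaches the range of another group.

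Among the proteoglycan-cleaving members, Adamts4, an aggrecanase that also cuts versican, changed the most. It was at 1.31, 1.2, 0.832 and 1.16 CPM in control lungs, where each library held 13 to 22 counts of it. In WT bleomycin lungs it reached 33.3, 40.6, 37.3, 33.2 and 28.4 CPM, and in the libraries labelled CB1R KO it reached 8.83, 12.2, 25.1 and 14.7 CPM. Every WT bleomycin library lay above every CB1R KO library, and every CB1R KO library lay above every control library. Replicate 10 was the CB1R KO library nearest to the WT bleomycin group. The mean was 1.13 ± 0.205 CPM (SD, n = 4) for control lungs, 34.6 ± 4.62 CPM (SD, n = 5) for WT bleomycin lungs and 15.2 ± 7.01 CPM (SD, n = 4) for the libraries labelled CB1R KO.

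Unless another tool or setting is named, each adjusted p comes from edgeR (quasi-likelihood test, Benjamini-Hochberg over the 15315 genes tested). By this test Adamts4 rose in WT lungs by a log2 fold change of 4.93 ± 0.30 SE (adjusted p = 5.81e-08). It rose in CB1R KO lungs by 3.74 ± 0.31 SE on the log2 scale against the same controls (adjusted p = 1.52e-06). Against WT bleomycin lungs it fell in CB1R KO lungs by 1.18 ± 0.22 SE on the log2 scale (adjusted p = 0.0266), with a 95% interval of the log2 difference from -1.65 to -0.71. That call was lost without WT bleomycin replicate 2, 5 or 4-B2, or without CB1R KO replicate 8, 9 or 11, where the adjusted p lay between 0.0576 and 0.105, with edgeR on the bleomycin groups alone (adjusted p = 0.0513) and with the libraries whose labels are written in lower case alone (log2 difference -1.29, adjusted p = 0.126). The log2 difference stayed between -1.52 and -1.0 in all 23 alternatives, and 15 of them kept the call.

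Adamts1, first known as a gene induced in inflammation, was the most abundant member on the TPM scale and had a smaller fold change. It was at 185, 237, 254 and 291 CPM in control lungs and at 460, 482, 544, 327 and 401 CPM in WT bleomycin lungs. The CB1R KO libraries held 366, 357, 302 and 300 CPM. Both bleomycin groups lay entirely above control, and 2 of the 4 CB1R KO libraries fell below the lowest WT bleomycin library. The rise in WT lungs was 0.87 ± 0.14 SE on the log2 scale (adjusted p = 0.000195). The rise in CB1R KO lungs was 0.45 ± 0.15 SE (adjusted p = 0.0298), and that call was lost without control replicate 3 or 21 and without CB1R KO replicate 8 or 9, with adjusted p up to 0.0811. The difference between the bleomycin groups, a log2 fold change of -0.42 ± 0.14 SE, did not pass the test (adjusted p = 0.157, 95% interval -0.72 to -0.11).

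Adamts8, an anti-angiogenic member, went the other way. Control lungs held 46.1, 57.6, 52.2 and 49.0 CPM and WT bleomycin lungs held 40.5, 31.1, 37.4, 41.0 and 47.9 CPM, so that 4 of the 5 WT bleomycin libraries lay below every control. It fell by 0.37 ± 0.11 SE on the log2 scale (adjusted p = 0.0115). The CB1R KO libraries, at 54.1, 45.0, 43.1 and 48.4 CPM, overlapped both other groups, and the log2 fold change was 0.27 ± 0.11 SE against WT bleomycin (adjusted p = 0.229) and -0.10 ± 0.11 SE against control (adjusted p = 0.505).

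Adamts5, the other major aggrecanase of cartilage, did not follow Adamts4. It was at 21.5, 20.6, 19.6 and 23.5 CPM in control lungs, at 21.9, 22.5, 28.8, 15.4 and 26.0 CPM in WT bleomycin lungs and at 15.6, 18.7, 20.9 and 17.5 CPM in the CB1R KO libraries. The 3 groups overlapped, with WT bleomycin replicate 4-B2 the lowest library and replicate 5 the highest. The log2 fold changes were 0.11 ± 0.14 SE for WT bleomycin against control (adjusted p = 0.566, 95% interval -0.20 to 0.42) and -0.34 ± 0.15 SE for CB1R KO against WT bleomycin (adjusted p = 0.254, 95% interval -0.65 to -0.03).

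Adamts15, a further proteoglycan-cleaving member, had the largest SD for its mean among the tested members in control mice. Control libraries held 78.0, 40.0, 59.9 and 107 CPM, WT bleomycin libraries 77.9, 76.0, 149, 101 and 156 CPM, and CB1R KO libraries 87.7, 125, 116 and 121 CPM. Both bleomycin groups had higher means than control, but control replicate 26 lay inside their ranges. The log2 fold change was 0.65 ± 0.27 SE in WT lungs (adjusted p = 0.055) and 0.66 ± 0.28 SE in CB1R KO lungs (adjusted p = 0.0771), neither of which passed the test. Without control replicate 26 both passed it, at 0.91 (adjusted p = 0.0129) and 0.92 (adjusted p = 0.0212). For CB1R KO against WT bleomycin the log2 difference was 0.01 ± 0.26 SE, with a 95% interval from -0.55 to 0.57 (adjusted p = 0.989).

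The 2 procollagen N-proteinases separated from each other. Adamts2, which trims types I, II and III procollagen, was at 62.0, 76.2, 62.4 and 55.7 CPM in control lungs and at 202, 241, 256, 224 and 251 CPM in WT bleomycin lungs. The CB1R KO libraries held 187, 197, 241 and 222 CPM. Both bleomycin groups lay far above control and overlapped each other. Adamts2 rose by 1.87 ± 0.10 SE on the log2 scale in WT lungs (adjusted p = 3.24e-08) and by 1.72 ± 0.11 SE in CB1R KO lungs (adjusted p = 1.89e-07). It stood at rank 14 and rank 10 of the 15315 genes by p in these comparisons. The difference between the bleomycin groups was -0.15 ± 0.10 SE (adjusted p = 0.471), and its 95% interval ran from -0.36 to 0.06.

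Adamts14, which can remove the same propeptides, was low and did not rise. It was at 15.1, 13, 14.3 and 13.7 CPM in control lungs, at 10.6, 12.6, 11.8, 12.7 and 15.4 CPM in WT bleomycin lungs and at 11.0, 11.0, 9.75 and 9.52 CPM in the CB1R KO libraries. All 4 CB1R KO libraries lay below every control. In WT bleomycin lungs 4 of 5 did, while replicate 7 was above the highest control. Adamts14 fell by 0.45 ± 0.12 SE on the log2 scale in CB1R KO lungs against control (adjusted p = 0.00798). It did not pass the test in WT lungs against control (log2 fold change -0.15 ± 0.11 SE, adjusted p = 0.267) or between the bleomycin groups (-0.29 ± 0.11 SE, adjusted p = 0.194, 95% interval -0.53 to -0.06).

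Of the COMP-cleaving members, Adamts12 came close to Adamts4 in the size of its rise. It was at 4.75, 3.67, 2.88 and 3.67 CPM in control lungs, at 36.9, 46.8, 51.7, 46.6 and 44.6 CPM in WT bleomycin lungs and at 19.6, 26.9, 51.8 and 32.9 CPM in the CB1R KO libraries. All bleomycin libraries lay above all controls. In the CB1R KO group 3 libraries lay below the lowest WT bleomycin library, and replicate 10 lay just above the highest. The log2 fold change was 3.59 ± 0.26 SE in WT lungs (adjusted p = 1.56e-07) and 3.13 ± 0.26 SE in CB1R KO lungs (adjusted p = 1.83e-06). The difference between the bleomycin groups, -0.47 ± 0.21 SE, did not pass the test (adjusted p = 0.271, 95% interval -0.91 to -0.02). Without CB1R KO replicate 10 it did, at a log2 difference of -0.76 (adjusted p = 0.0193).

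Adamts7, the relative of Adamts12, was scarcer. Control lungs held 2.73, 5.71, 4.80 and 5.86 CPM, WT bleomycin lungs 8.55, 8.96, 12.9, 10.8 and 10.4 CPM, and the CB1R KO libraries 9.03, 5.31, 11.2 and 11.2 CPM. WT bleomycin lungs lay entirely above control, whereas CB1R KO replicate 9 lay within the control range. Adamts7 rose by 1.11 ± 0.24 SE on the log2 scale in WT lungs (adjusted p = 0.00178) and by 0.95 ± 0.25 SE in CB1R KO lungs (adjusted p = 0.00957). The log2 difference between the bleomycin groups was -0.16 ± 0.23 SE (adjusted p = 0.765, 95% interval -0.65 to 0.33).

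Adamts16, whose substrates are less well defined, was the scarcest member. No control library held a count of it, which over the 4 control libraries together allows up to 3 counts or 0.0464 CPM. The WT bleomycin libraries held 9, 10, 7, 11 and 17 counts, or 0.570, 0.618, 0.437, 0.761 and 1.05 CPM. The CB1R KO libraries held 0, 3, 14 and 16.3 estimated counts, or 0, 0.181, 0.870 and 0.295 CPM. All 5 WT bleomycin libraries were therefore above control, while CB1R KO replicate 8 was at 0 like the controls, and the 3 counts of replicate 9 equalled the limit that a count of 0 allows in 1 library. The mean level in WT bleomycin lungs was 14.8 times that limit for control lungs. The mean in CB1R KO lungs was 7.25 times the same limit, and 3.42 times without replicate 10. A two-sided exact permutation test of the CPM values, chosen after the counts were seen, gave p = 0.0159 for WT bleomycin against control, the smallest it can give with 5 and 4 libraries, which restates that every WT bleomycin library was above 0 and every control at 0. The exact p was 0.143 for CB1R KO bleomycin against control and 0.127 between the bleomycin groups. In a fit without the count filter Adamts16 passed the test in WT (adjusted p = 0.00119) and in CB1R KO lungs (adjusted p = 0.0109) against control, and did not between the bleomycin groups (adjusted p = 0.50). It entered that fit through its bleomycin counts alone, since every control was at 0.

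**Figure D2:**
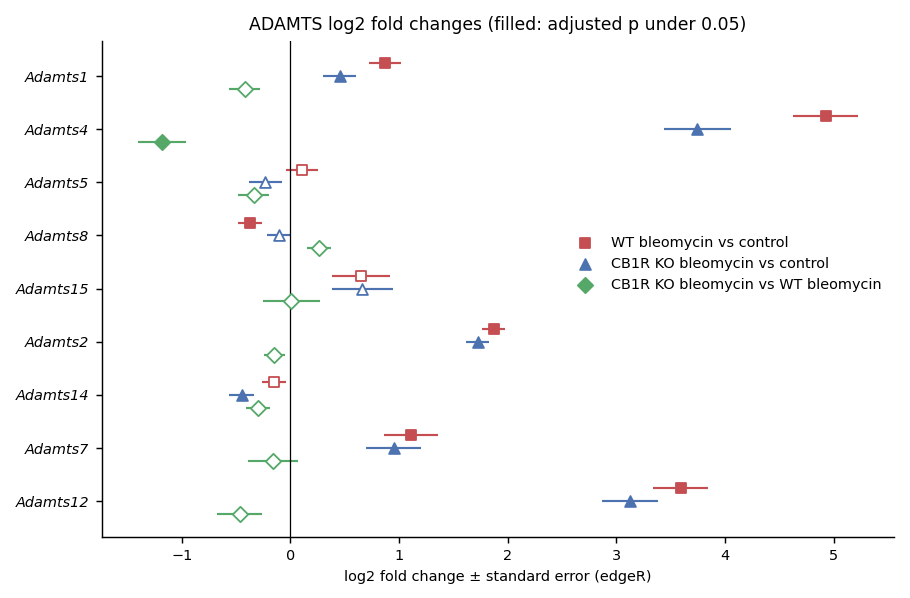
Log2 fold change (x axis) of the 9 tested ADAMTS genes with its standard error as a horizontal bar, for WT bleomycin against control (squares), CB1R KO bleomycin against control (triangles) and CB1R KO against WT bleomycin (diamonds). Filled symbols have an adjusted p under 0.05 by edgeR. Adamts4 has the only filled diamond, at -1.18, and its square lies farthest right, at 4.93.

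Counted over the members, 5 of the 9 tested genes rose and 1 fell in WT bleomycin against control lungs. In that comparison 48.9% of all genes tested passed the threshold, 25% as rises and 23.9% as falls. The groups did not overlap for 5 of the 9 members, all higher, against 40.3% of all genes, 21.5% as higher and 18.8% as lower. The median log2 fold change of the 9 was 0.87, compared with -0.01 over all genes tested. In CB1R KO bleomycin against control lungs, which use the same control mice, 5 members rose and 1 fell, where 35.4% of all genes tested passed the threshold (19% rose and 16.3% fell). There the groups did not overlap for 5 of the 9 members, 4 higher and 1 lower, against 33.5% of all genes, 17.7% as higher and 15.8% as lower.

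Between the bleomycin groups 1 of the 9 members, Adamts4, passed the threshold in edgeR's quasi-likelihood test, as a fall, and no member rose. In this comparison 0.979% of all genes tested passed, 0.62% as falls and 0.359% as rises. DESeq2 also called 1 member. At an unadjusted p under 0.05 there were 6 of 9 members, of which Adamts8 was the only one higher in CB1R KO lungs, whereas 17% of all genes reached that level, 9.08% as lower and 7.95% as higher. Adamts4 was the 1 member whose groups did not overlap, against 5.6% of all genes, 3.1% as lower. The log2 fold change was below 0 for 7 of the 9 members, and its median was -0.29, compared with 0.00 over all genes tested.

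On the TPM scale, which allows genes to be compared, the 10 genes together amounted to 120 to 152 TPM in control lungs, 210 to 312 TPM in WT bleomycin lungs and 214 to 224 TPM in CB1R KO bleomycin lungs. Both bleomycin groups lay above every control library and overlapped each other. Adamts1 made up the largest share in each group, with 54.2% ± 4.28 (SD, n = 4) of the summed level for control, 52.5% ± 5.63 (SD, n = 5) for WT bleomycin and 47.9% ± 4.94 (SD, n = 4) for CB1R KO bleomycin lungs. The share of Adamts8 went from 15.6% ± 2.14 to 6.39% ± 1.36 and 9.26% ± 1.08 in the same order of groups, and that of Adamts2 from 10.1% ± 1.99 to 18.5% ± 1.83 and 20.3% ± 2.41. Adamts4 amounted to 0.286% ± 0.0692 of the sum in control, 4.56% ± 0.708 in WT bleomycin and 2.43% ± 1.09 in CB1R KO bleomycin lungs.

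**Figure D3:**
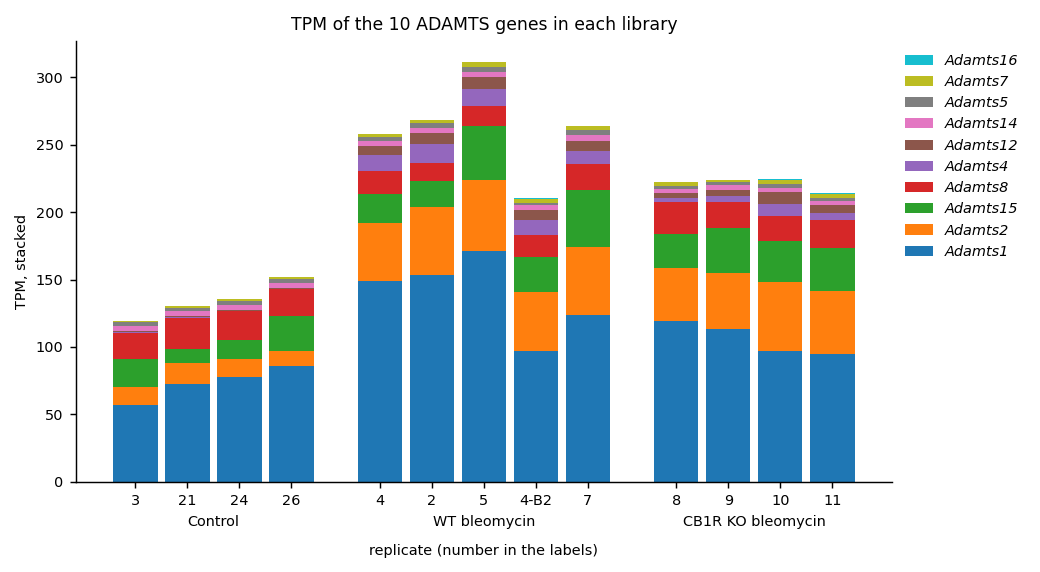
TPM (y axis, from 0) of the 10 ADAMTS genes stacked for each library, grouped by control, WT bleomycin and CB1R KO bleomycin. Adamts1 is the largest block in every library, and the stacks reach 120 to 152 TPM in control lungs and 210 to 312 TPM in WT bleomycin lungs.

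The order of the levels changed with bleomycin. In control lungs Adamts1, at 73.1 ± 11.9 TPM (SD, n = 4), was followed by Adamts8 (20.8 ± 1.94 TPM), Adamts15 (18 ± 7.02 TPM) and Adamts2 (13.4 ± 1.83 TPM), and the libraries of neighbours overlapped among those 3. Adamts14, at 3.97 ± 0.295 TPM, Adamts5 and Adamts7 came next, and Adamts12, Adamts4 and Adamts16 were last. In WT bleomycin lungs Adamts1 (139 ± 29.0 TPM, SD, n = 5) was followed by Adamts2 (48.3 ± 4.16 TPM) without overlap, then by Adamts15 (29.6 ± 10.5 TPM) and Adamts8 (16.5 ± 2.34 TPM), whose libraries overlapped. Adamts4 moved from the ninth place to the fifth, at 11.9 ± 1.74 TPM, where its libraries overlapped those of Adamts8, ahead of Adamts12 at 7.72 ± 0.837 TPM without overlap. In CB1R KO bleomycin lungs the first 4 places were Adamts1 (106 ± 11.9 TPM), Adamts2 (44.9 ± 5.15 TPM), Adamts15 (30.2 ± 3.78 TPM) and Adamts8 (20.5 ± 2.26 TPM), none of which overlapped the next. Adamts12 (5.77 ± 2.41 TPM) and Adamts4 (5.37 ± 2.46 TPM) overlapped there.

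Adamts4 and Adamts12 also varied together over the 13 libraries taken as a whole. Across all genes tested, Adamts4 was the gene with the level most like that of Adamts12, with a Pearson correlation of log2 CPM of 0.990 over the 13 libraries and 0.925 for the deviations from the group means. Among the CB1R KO libraries the order of Adamts12 levels (replicates 8, 9, 11 and 10 from low to high) was also that of Adamts4. The order differed among the WT bleomycin libraries. There Adamts4 was lowest in replicate 7 (28.4 CPM) and highest in replicate 2 (40.6 CPM). Adamts12 was lowest in replicate 4 (36.9 CPM) and highest in replicate 5 (51.7 CPM). The 13 points share their libraries and fall into groups, so these correlations are descriptions.

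**Figure D4:**
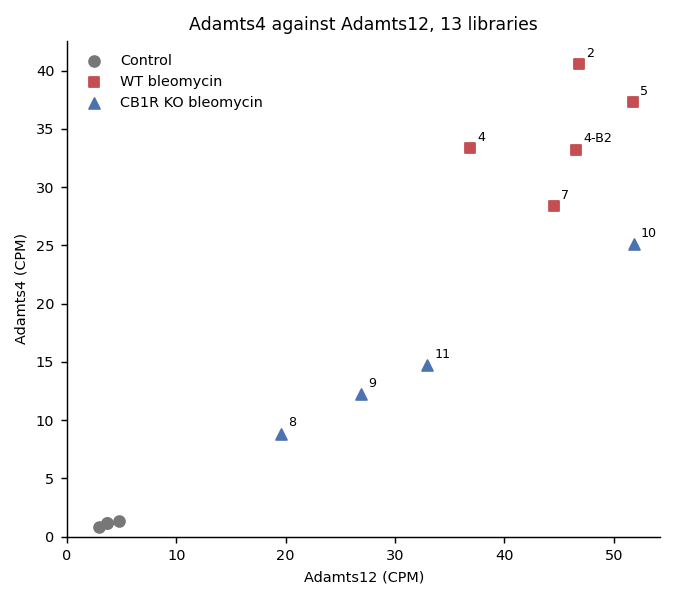
Adamts4 (y axis, CPM) against Adamts12 (x axis, CPM) in the 13 libraries, with the replicate number beside each bleomycin library. The controls lie near the origin, and among the CB1R KO libraries replicate 8 has the lowest and replicate 10 the highest level of both genes (8.83 and 25.1 CPM of Adamts4).

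For each tested member, the 3 genes with the highest correlation of log2 CPM over the 13 libraries were taken by the same measure. For Adamts4 they were Prune2 (0.994), Mex3a (0.992) and Sh3pxd2b (0.992). For Adamts12 they were Adamts4, Nek6 (0.990) and the fibrillin gene Fbn1 (0.990). For Adamts2 they were Igf1 (0.993), the type III procollagen gene Col3a1 (0.992) and Sparc (0.992), the gene of a collagen-binding matrix protein. Within groups the correlations were lower for these genes, at 0.837 for Prune2 with Adamts4, 0.759 for Fbn1 with Adamts12, and 0.847 for Igf1 and 0.832 for Col3a1 with Adamts2. The remaining members had other neighbours, with Eloa, Slc11a2 and Plekha4 nearest to Adamts1 (0.908 to 0.918), and Pgf, the placental growth factor gene, Nrtn and Spc24 nearest to Adamts7 (0.943 to 0.948). Nearest to Adamts5 were Cubn, Zfp523 and Des (0.823 to 0.884), and to Adamts15 Kcne4, Got1 and Ube2g2 (0.858 to 0.893). Nearest to Adamts8 were Zdhhc4, Dstyk and Chrm1 (0.898 to 0.918), and to Adamts14 Cdyl, Ppil6 and Gas2l2 (0.887 to 0.911).

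The rest of the ADAMTS and ADAMTS-like family moved in both directions. Of its 15 genes, of which Papln is also counted among the inhibitors, 14 were tested, and in WT bleomycin against control lungs 3 rose and 2 fell, with a median log2 fold change of 0.13. Those counts lay below the shares over all genes tested, 25% as rises and 23.9% as falls. Adamts9, a versican-cleaving protease, rose by 1.5 ± 0.15 SE on the log2 scale (adjusted p = 2.93e-06) and Adamtsl3 by 0.37 ± 0.08 SE (adjusted p = 0.000973), while Adamtsl5 fell by 0.94 ± 0.19 SE (adjusted p = 0.000934). The other genes called, named after their values were seen, were Adamtsl2 (0.77, a rise) and Adamtsl4 (-0.35, a fall). In CB1R KO against WT bleomycin lungs none of the 14 passed the test in edgeR or in DESeq2, and 3 had an unadjusted p under 0.05. That level was reached by 17% of all genes tested. In CB1R KO bleomycin against control lungs 4 rose, Adamts9, Adamtsl2, Adamtsl3 and Adamts17, and DESeq2 called 5 rises and 1 fall. By edgeR 19% of all genes tested rose in that comparison and 16.3% fell, and DESeq2 called 5716 of 15310 genes.

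The genes listed as matrix substrates of the ADAMTS family were mostly higher after bleomycin, and which member cuts which product was not tested. Of 16 matrix substrates 14 were tested, and 11 rose and 1 fell in WT bleomycin against control lungs, with a median log2 fold change of 2.21. In that comparison 25% of all genes tested rose and 23.9% fell. Vcan, which encodes versican, rose from 9.84 ± 1.88 CPM (SD, n = 4) to 56.7 ± 10.8 CPM (SD, n = 5), a log2 fold change of 2.52 ± 0.19 SE (adjusted p = 1.94e-07). Comp was scarce, with 0.128 to 0.481 CPM in control and 1.18 to 2.60 CPM in WT bleomycin lungs, and rose by 2.65 ± 0.35 SE on the log2 scale (adjusted p = 2.39e-05). Comp passed the count filter through its bleomycin libraries alone. With at least 10 counts required in every library Comp was not tested, and 9 of 12 substrates rose. The fibronectin gene Fn1 rose by 2.95 ± 0.19 SE (adjusted p = 8.31e-08), Fbn1 by 2.5 ± 0.15 SE (adjusted p = 4.45e-08) and the thrombospondin gene Thbs1 by 2.16 ± 0.15 SE (adjusted p = 9.59e-08). Bcan, the brevican gene, was the 1 substrate that fell (-1.53 ± 0.32 SE, adjusted p = 0.00119) and is named after its values were seen. The aggrecan gene Acan and Ncan did not pass the count filter.

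Between the bleomycin groups 2 of the 14 substrates fell and none rose in edgeR's test, with 12 of 14 at an unadjusted p under 0.05 and a median log2 fold change of -0.41, and DESeq2 called 7 falls and no rise. Over all genes tested, 0.979% passed edgeR's test there and 17% had an unadjusted p under 0.05, 9.08% as lower. DESeq2 called 646 of 15310 genes. Thbs1 was at 1325 to 1617 CPM in WT bleomycin and at 726 to 968 CPM in the CB1R KO libraries, with no overlap, and fell by 0.75 ± 0.14 SE on the log2 scale (adjusted p = 0.0266). Fn1 was at 4052 to 5535 CPM in WT bleomycin lungs, at 2176 to 2351 CPM in 3 CB1R KO libraries and at 4269 CPM in replicate 10, and fell by 0.86 ± 0.18 SE (adjusted p = 0.0389). Vcan (-0.40 ± 0.16 SE, adjusted p = 0.236) and Comp (-0.83 ± 0.28 SE, adjusted p = 0.157) did not pass the test. The call of Thbs1 was lost in 8 of 23 alternatives (adjusted p up to 0.131) and that of Fn1 in 12 (adjusted p up to 0.212). Both were lost without any one of WT bleomycin replicates 2, 5, 4-B2 and 7 or CB1R KO replicates 8, 9 and 11, and that of Fn1 also without control replicate 21 or 24. In CB1R KO bleomycin against control lungs 10 of the 14 substrates rose, where 19% of all genes tested did.

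All 6 tested chains of fibrillar procollagen, the substrates of Adamts2 and Adamts14, rose in both bleomycin groups against control, with median log2 fold changes of 2.84 in WT and 2.34 in CB1R KO lungs. The share of all genes tested that rose was 25% in WT and 19% in CB1R KO lungs. With at least 10 counts required in every library 5 chains were tested, and all 5 rose in each bleomycin group against control. Col1a1 went from 237 ± 69.9 CPM (SD, n = 4) in control to 2080 ± 398 CPM (SD, n = 5) in WT bleomycin lungs, a log2 fold change of 3.13 ± 0.29 SE (adjusted p = 1.28e-06). Col3a1 rose by 2.80 ± 0.19 SE (adjusted p = 1.00e-07) and Col5a2 by 2.88 ± 0.19 SE (adjusted p = 8.91e-08). On the same scale the rise of Adamts2 was 1.87. None of the 6 chains passed the edgeR test between the bleomycin groups, 4 had an unadjusted p under 0.05 and DESeq2 called 3 falls. Over all genes tested, 0.979% passed and 17% had an unadjusted p under 0.05, and DESeq2 called 646 of 15310. Bmp1, whose product removes the carboxy-terminal propeptide, rose by 1.65 ± 0.13 SE in WT lungs (adjusted p = 3.13e-07). Pcolce, an enhancer of that cleavage, rose by 0.37 ± 0.06 SE (adjusted p = 0.000301), whereas the related Pcolce2 fell by 1.85 ± 0.17 SE (adjusted p = 1.33e-06). Pcolce2 was the 1 gene of the 4 tested C-proteinase and enhancer genes that differed between the bleomycin groups, at 76.6 to 95 CPM in WT bleomycin lungs and 90.5 to 201 CPM in the CB1R KO libraries (log2 fold change 0.81 ± 0.17 SE, adjusted p = 0.0413). That call was lost in 15 of 23 alternatives (adjusted p up to 0.252), among them leaving out any single library but control replicate 3, WT bleomycin replicate 4 or CB1R KO replicate 10.

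Inhibitors were unequal. Of 7 tested, Timp1 and A2m rose in WT bleomycin against control lungs and none fell, where 25% of all genes tested rose and 23.9% fell. Timp1, which is a poor inhibitor of most ADAMTS proteases, rose by 4.58 ± 0.35 SE on the log2 scale (adjusted p = 2.76e-07), and A2m, the gene of the broad protease trap alpha-2-macroglobulin, rose by 4.37 ± 0.45 SE from 0.218 ± 0.125 CPM (SD, n = 4) to 4.61 ± 2.03 CPM (SD, n = 5, adjusted p = 2.90e-06). A2m passed the count filter through its bleomycin libraries alone. With at least 10 counts required in every library A2m was not tested, and 1 of 5 inhibitors rose. Timp3, the inhibitor with the strongest link to this family, did not pass the test in WT lungs, at 919 to 1772 CPM in control and 1077 to 1512 CPM in WT bleomycin libraries (log2 fold change -0.23 ± 0.16 SE, adjusted p = 0.241). It fell by 0.45 ± 0.17 SE in CB1R KO lungs against control (adjusted p = 0.0466), with overlapping groups, and that call was lost in 17 of 23 alternatives (adjusted p up to 0.138). Of all genes tested 16.3% fell in that comparison. Timp1 fell between WT bleomycin and CB1R KO lungs by 1.46 ± 0.29 SE (adjusted p = 0.0314), from 96.0 to 145 CPM in WT bleomycin to 30.1 to 76.4 CPM in the CB1R KO libraries, and replicate 10 was again the highest of the 4. The call of Timp1 was lost in 9 of 23 alternatives (adjusted p up to 0.209), among them without any one of WT bleomycin replicates 2, 5, 4-B2 and 7 or CB1R KO replicates 8, 9 and 11. DESeq2 called 2 falls among the inhibitors between the bleomycin groups. Among all genes tested 0.979% passed edgeR's test in that comparison, 0.62% as falls, and DESeq2 called 646 of 15310.

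Of the 12 genes for activation, glycosylation, cofactors and uptake, 10 rose and none fell in WT bleomycin against control lungs, with a median log2 fold change of 0.55. Among all genes tested 25% rose there and 23.9% fell. Furin, whose product removes ADAMTS propeptides, rose by 0.69 ± 0.08 SE (adjusted p = 5.80e-06). Sdc1, a syndecan gene, rose by 0.66 ± 0.06 SE (adjusted p = 1.92e-06) and Pofut2, whose product adds fucose to thrombospondin repeats, by 0.53 ± 0.06 SE (adjusted p = 7.71e-06). Lrp1, an endocytic receptor that clears ADAMTS4 and ADAMTS5, rose by 0.51 ± 0.09 SE (adjusted p = 0.000472), and Sdc4, a syndecan gene linked to ADAMTS5, by 0.35 ± 0.07 SE (adjusted p = 0.0015). Between the bleomycin groups 1 gene rose and 1 fell, and DESeq2 called 2 in each direction. Among all genes tested 0.359% rose and 0.62% fell in edgeR's test, and DESeq2 called 646 of 15310. Furin was at 211 to 275 CPM in WT bleomycin and at 177 to 211 CPM in the CB1R KO libraries, where every library lay below every WT bleomycin library, and it fell by 0.36 ± 0.08 SE (adjusted p = 0.0411). Fbln1, which encodes the ADAMTS1 cofactor fibulin-1, was at 80.4 to 96.9 CPM in control, 81.4 to 92.2 CPM in WT bleomycin and 108 to 121 CPM in the CB1R KO libraries. It rose by 0.43 ± 0.07 SE against WT bleomycin (adjusted p = 0.0177) and by 0.42 ± 0.07 SE against control (adjusted p = 0.000503), with no overlap in either comparison. Between the bleomycin groups the call of Fbln1 was lost in 4 of 23 alternatives, without CB1R KO replicate 8, 9 or 11 and with lower-case labels alone (adjusted p up to 0.0954). That of Furin was lost in 13 (adjusted p up to 0.276), among them leaving out any single library but control replicate 3, WT bleomycin replicate 4 or CB1R KO replicate 10.

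**Figure D5:**
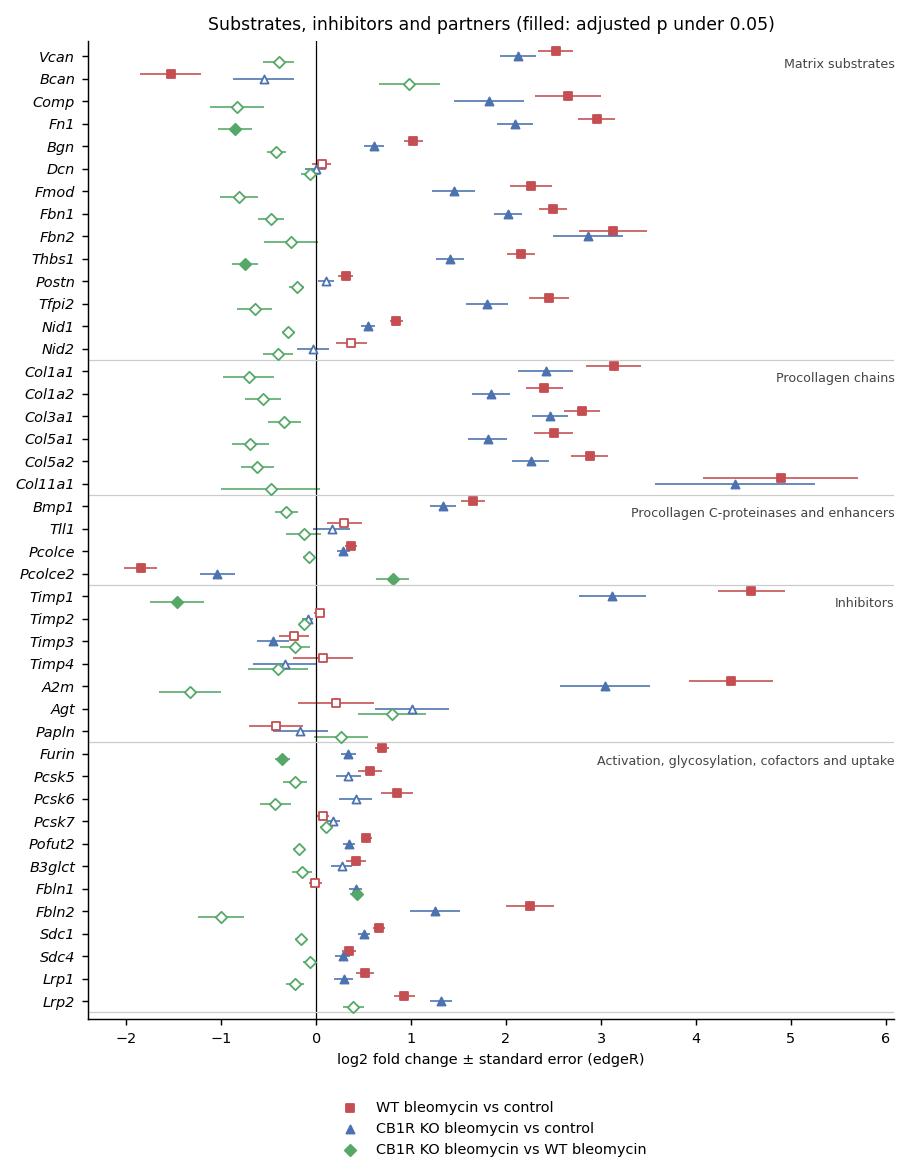
Log2 fold change (x axis) with its standard error for the tested substrates, procollagen chains, C-proteinases, inhibitors and partner genes of the ADAMTS proteases, in the 3 comparisons (squares for WT bleomycin against control, triangles for CB1R KO bleomycin against control, diamonds for CB1R KO against WT bleomycin). Filled symbols have an adjusted p under 0.05 by edgeR, and the filled diamonds are Fn1, Thbs1, Pcolce2, Timp1, Furin and Fbln1, of which none was called without CB1R KO replicate 8, 9 or 11.

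Markers of several cell types changed, and more cell types were examined than the 6 described below. Among those left out, 4 of 5 endothelium markers and all 3 red blood cell markers fell in WT bleomycin against control lungs. The remaining endothelium marker rose. In the same comparison 2 of 2 club cell, 2 of 4 type I cell, 2 of 4 tested adipocyte and 2 of 3 neutrophil markers fell. B and plasma cell markers gave 1 rise and 2 falls, as did pericyte markers, and mesothelium markers gave 1 of each. Of 3 ciliated cell and 3 T cell markers 1 each fell, and none of 4 alveolar macrophage markers was called. In that comparison 25% of all genes tested rose and 23.9% fell. The 4 markers of activated fibroblasts, which make much of the scar matrix, all rose in WT bleomycin against control lungs, and summed to 205 to 220 TPM in control, 373 to 482 TPM in WT bleomycin and 287 to 366 TPM in the CB1R KO libraries. Most of each sum was Postn, which is also counted among the substrates. Postn was at 194 to 208 TPM in control, 231 to 308 TPM in WT bleomycin and 205 to 236 TPM in CB1R KO libraries. From control to WT bleomycin lungs Postn rose by 0.31 on the log2 scale, whereas the median rise of the 4 markers was 2.64. The sums of the bleomycin groups did not overlap, while their Postn levels did. Replicate 10 had the highest sum of the CB1R KO libraries, as for Adamts4 and Adamts12. All 4 activated fibroblast markers had an unadjusted p under 0.05 between the bleomycin groups, where 17% of all genes tested did. None passed the adjusted threshold in edgeR, which 0.979% of all genes passed. DESeq2 called 3 falls among them and 646 of 15310 genes in all. The 4 markers of monocyte-derived macrophages, of which Fn1 is also counted among the substrates, summed to 223 to 316 TPM in control, 2582 to 3122 TPM in WT bleomycin and 1671 to 2684 TPM in the CB1R KO libraries. These markers did not move as one between the bleomycin groups. Fn1 fell, Spp1 had a log2 fold change of -0.48 ± 0.17 SE (adjusted p = 0.172), Trem2 one of 0.00 ± 0.20 SE (adjusted p = 0.993) and Gpnmb one of 0.69 ± 0.18 SE (adjusted p = 0.0783), with no overlap for Gpnmb. The 5 type II cell markers summed to 31111 to 36440 TPM, 18588 to 22156 TPM and 23201 to 36481 TPM in the same order, and 4 of them fell in WT bleomycin lungs while 3 were higher in CB1R KO than in WT bleomycin lungs. The 5 fibroblast markers, of which 1 rose and 3 fell in WT bleomycin against control lungs, summed to 2875 to 3589 TPM, 543 to 812 TPM and 747 to 1629 TPM. A TPM sum weighs abundant genes most, and the median log2 fold change of these 5 in WT bleomycin against control lungs was -0.34. Smooth muscle markers summed to 332 to 414 TPM, 372 to 615 TPM and 330 to 431 TPM, with 2 of the 5, Acta2 and Actg2, higher and Myh11 lower in WT bleomycin than in control lungs, and Actg2 lower in CB1R KO than in WT bleomycin lungs (log2 fold change -0.80 ± 0.14 SE, adjusted p = 0.0231). The markers named here were picked after their values were seen. Cardiac muscle markers summed to 535 to 1303 TPM, 98.7 to 390 TPM and 386 to 678 TPM, and all 4 fell in WT bleomycin against control lungs. Of the markers of these 6 cell types, none was at 0 in every library. The part of these cell types in the changes of the ADAMTS genes was not tested.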

How the data were processed

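RNA of the lower right lung lobe was sequenced by the authors in 13 libraries as poly(A)-selected NEBNext Ultra II libraries with paired-end reads and quantified with Kallisto on the Ensembl mouse reference (build GRCm39 per the labels; the Kallisto version is not given in the sources used here). The authors deposited estimated counts and TPM summed over protein-coding transcripts per gene symbol, and 64.8% of the count values were not whole (tolerance 0.001). The 13 single-sample tables hold the same values as the series tables, and 1 TPM column that matched no sample was not used. Total counts per library were 14615904 to 53463884, and intervals of log2 fold changes rest on the spread between libraries.

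Groups came from the labels. Members, lists and markers were chosen with earlier results of these data known. Estimated counts were rounded, filtered with filterByExpr, scaled by TMM and fitted in 3 groups by edgeR 4.0.16 (quasi-likelihood test; limma 3.58.1, DESeq2 1.42.0 and R 4.3.3; Python 3.11.15, pandas 2.3.3, numpy 2.4.6, matplotlib 3.10.9), with Benjamini-Hochberg adjustment over all genes tested and a threshold of 0.05. A prior count of 2 entered log2 CPM. The procedure was tested on simulated data. No pair of replicates agreed within sampling noise (chi-square per gene of 6.23 or more), including WT bleomycin replicates 4 and 4-B2, which share a number in the labels. The genes named, apart from those said to be picked after their values were seen, were all members, 11 listed genes fixed by name, up to 3 genes per list with the smallest p among those past the threshold in WT bleomycin against control, all listed genes past it between the bleomycin groups, the 3 nearest genes per member and Cnr1. Alternatives were other count filters, RLE and upper-quartile scaling, DESeq2, the 2 groups compared alone, limma on log2(TPM + 1) and log2(TPM + 0.1), the style of the labels (3 libraries have labels in mixed case) as a term, the libraries with lower-case labels alone, and each library left out. Promoter windows are the RefSeq table's, in build GRCm38.p6, which differs from the authors' build.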

Additional observations from a re-analysis of the deposited data

How the results depend on the processing

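Each of the 27 log2 fold changes of the 9 tested members and the 3 counts of members called was recomputed under 23 alternatives. The count of members called was 6 to 8 for WT bleomycin against control and 6 to 8 for CB1R KO bleomycin against control, including Adamts16, which was called in both in each of the 8 alternatives where it passed the filter. Every control held 0 counts of Adamts16, so it entered those fits only through its bleomycin libraries. Its calls there are not separate support, and its exact permutation p for CB1R KO bleomycin against control was 0.143. Over the 9 members alone the count was 6 to 7 and 5 to 7. Between the bleomycin groups it was 1, fell to 0 with edgeR on the 2 groups compared and with the libraries whose labels are in lower case, and ran from 0 to 2 when 1 library was left out. It was 0 without WT bleomycin replicate 2, 5 or 4-B2 or CB1R KO replicate 8, 9 or 11, and 2 without CB1R KO replicate 10, which added Adamts12. The cause was not tested. The log2 difference of Adamts15 between the bleomycin groups, 0.01, changed sign without WT bleomycin replicate 4 (-0.0965), 2 (-0.102) or 4-B2 (-0.0240) and without CB1R KO replicate 9 (-0.0446), 10 (-0.00437) or 11 (-0.0239). With 1 library left out it ran from -0.102 to 0.159, the highest without WT bleomycin replicate 7. That of Adamts7, -0.16, ran from -0.275 without CB1R KO replicate 11 to 0.0263 without CB1R KO replicate 9. The calls of Adamts1, Adamts2, Adamts4, Adamts7, Adamts8 and Adamts12 in WT bleomycin against control held in all 23 alternatives. The call of Adamts14 in CB1R KO bleomycin against control was lost in 1 alternative, limma on log2(TPM + 0.1) (adjusted p = 0.0518), and that of Adamts1 in 5, of which 1 was the style of the labels as a term (adjusted p = 0.057). Adamts15 passed the threshold in 7 alternatives for WT bleomycin and in 5 for CB1R KO bleomycin against control.

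Over all genes, the 150 calls between the bleomycin groups became 646 with DESeq2, 88 on the 2 groups compared, 41 with the style of the labels as a term, 6 with lower-case labels alone, 109 and 93 with limma on log2(TPM + 1) and log2(TPM + 0.1), and 1 to 653 when 1 library was left out, the lowest without CB1R KO replicate 9 and the highest without replicate 10. No paired analysis was possible because the groups compared share no replicate numbers. All mixed-case labels belong to control and WT bleomycin libraries, so label style and genotype are partly tied, and what the style marks is not given in the sources used here. Adamts16, with 0 to 17 counts per library, Comp and A2m are limited by depth. The listed genes called between the bleomycin groups (Fbln1, Fn1, Furin, Pcolce2, Thbs1 and Timp1) numbered 6 and became 0 with lower-case labels alone and without CB1R KO replicate 8, 9 or 11.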
